A study of Mus musculus with 2 samples.

Results

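The genes described here are 4 genes of energy supply, Ckm, Ckmt2, Ampd1 and Slc16a3, in the inguinal fat pad, a subcutaneous white fat depot. They were taken by exact gene symbol from the authors' deposited table of probes higher in H4-TG, so 4 of its 800 named genes are described, out of 35556 probes with a value. H4-TG transgenic male mice were compared with wild-type (WT) male mice, both about 8 weeks old and kept on normal chow at room temperature. RNA from 4 animals was pooled per genotype and each pool was put on 1 array, so there is 1 H4-TG array and 1 WT array. The labels do not say what H4 stands for or which promoter and cell type drive the transgene, and none of the values below checks it. A single array per genotype leaves no replicate spread, so the comparison has no test and no p-value. All 4 genes were chosen because they were higher in H4-TG, so their differences are a description.

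Cells that use energy in bursts keep a store of phosphocreatine. Creatine kinases pass its phosphate to ADP in the cytosol, and mitochondrial creatine kinases refill it from newly made ATP. When ADP builds up, adenylate kinase makes ATP and AMP from it, and AMP deaminase removes the AMP as the first step of the purine nucleotide cycle. Fast glycolysis leaves lactate, which monocarboxylate transporters carry out of the cell with a proton. These steps are best known from skeletal muscle. In beige adipocytes of mice, creatine has also been described as part of a cycle that spends ATP to make heat.

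The probes carried the following identities in the authors' deposited table, whose genome build is not stated. Ckm, cytosolic creatine kinase of muscle (probe 10550698), lies on chromosome 7 at 19996443 to 20006932. Ckmt2, the sarcomeric mitochondrial creatine kinase (probe 10410984), lies on chromosome 13 at 91992992 to 92016490. Ampd1, the muscle form of AMP deaminase (probe 10494873), lies on chromosome 3 at 102877937 to 102903643. Slc16a3, which encodes the lactate exporter MCT4 (probe 10383502), lies on chromosome 11 at 120809798 to 120820314. Each gene had 1 probe in that table, and no probe there with several gene symbols named any of them. Probes outside the table carry no name here, so further probes of these genes could not be seen.

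The RefSeq promoter table (GRCm38.p6) held 3 of the 4 genes, Ckm, Ckmt2 and Slc16a3. The 250 bases before the start are shown for both creatine kinase genes. Capitals mark CANNTG, the E-box that myogenic factors and many other factors bind, and TATAA, both searched on both strands. The windows are chr7:19410844-19411093 on the plus strand for Ckm and chr13:91876886-91877135 on the minus strand for Ckmt2.
Ckm: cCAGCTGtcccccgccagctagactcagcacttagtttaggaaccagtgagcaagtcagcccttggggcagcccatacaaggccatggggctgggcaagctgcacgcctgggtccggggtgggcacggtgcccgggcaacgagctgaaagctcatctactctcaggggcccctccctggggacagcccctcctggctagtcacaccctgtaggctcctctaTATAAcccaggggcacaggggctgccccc
Ckmt2: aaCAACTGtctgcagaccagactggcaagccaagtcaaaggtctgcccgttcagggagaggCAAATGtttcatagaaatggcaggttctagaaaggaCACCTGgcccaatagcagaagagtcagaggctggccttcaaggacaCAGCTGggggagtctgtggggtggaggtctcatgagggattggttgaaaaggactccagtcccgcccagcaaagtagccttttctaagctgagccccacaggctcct
The Ckm window held 1 CANNTG match, CAGCTG, which began 249 bases before the start, and 1 TATAA match, which began 29 bases before it. The Ckmt2 window held 4 CANNTG matches, of which the 1 nearest to the start, CAGCTG, began 107 bases before it, and no TATAA. The Slc16a3 window held neither motif. Of 27025 promoter windows of the same length, 1 per gene, 66.0% held CANNTG, 12.8% held CAGCTG, which is a subset of it, and 23.5% held TATAA. A match is a run of letters in the reference and not a measured binding site.

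Ckm had the largest difference of the 4 genes. Its log2 signal was 10.95 on the H4-TG array and 8.15 on the WT array, a log2 difference of 2.80 or 6.94-fold. The probe was already bright in WT, at percentile 78.3 of all WT probes, and stood at percentile 97.9 on the H4-TG array. Its difference was the 19th largest of all probes and the 12th largest of the 800 named genes. Among the 2168 probes with a mean signal within 0.5 of that of Ckm, the 5th and 95th percentiles of the differences were -0.57 and 0.41, and 4 probes (0.185%), Ckm among them, differed by as much or more.

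Ckmt2 had a log2 signal of 6.65 in H4-TG and 5.01 in WT. The difference was 1.64, or 3.11-fold. Its probe was dim in WT, at percentile 27.2 of that array, and at percentile 55.9 in H4-TG. Both creatine kinases were therefore higher in H4-TG, and the log2 difference of Ckm exceeded that of Ckmt2 by 1.16. Of the 6450 probes within 0.5 of the mean signal of Ckmt2, 13 (0.202%), Ckmt2 included, differed by 1.64 or more.

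Ampd1 had a log2 signal of 8.18 in H4-TG and 6.13 in WT, a difference of 2.06 or 4.16-fold. Its signal was near the middle of the WT array, at percentile 46.5, and at percentile 80.1 on the H4-TG array. The difference was the 29th largest of the named genes, between those of Ckm and Ckmt2. Of the 5720 probes within 0.5 of its mean signal, 8 (0.14%), Ampd1 included, differed as much.

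Slc16a3 differed least. Its log2 signal was 6.82 in H4-TG and 6.16 in WT, a difference of 0.66 or 1.58-fold, close to the lowest ratio that the authors' deposited table lists, 1.5. The difference stood at place 519 of the 800 named genes and was below their median of 0.71. Of the 5979 probes within 0.5 of its mean signal, 179 (2.99%) differed by 0.66 or more. The 95th percentile of differences in that signal range was 0.55, a little below Slc16a3. The corresponding percentiles were 0.41 for Ckm, 0.47 for Ampd1 and 0.59 for Ckmt2, below the differences of these genes. The lowest difference of any named gene in the authors' table was 0.58. A gene from that table therefore lies near or above these percentiles by the choice alone, so nothing is read from its place.

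Of the 4 genes, 3 reached 2-fold, and Slc16a3 lay between 1.5-fold and 2-fold. Over all 35556 probes, 317 (0.892%) were at least 2-fold and 1518 (4.27%) at least 1.5-fold higher, while 844 were at least 2-fold lower. Without the lowest probe identifiers of the array, which carry no gene name, 174 were at least 2-fold higher. The 844 lower probes include these identifiers and were not recounted without them, so 844 cannot be set against 174. The genes were chosen from this same contrast, so nothing is read from their count.

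**Figure D1:**
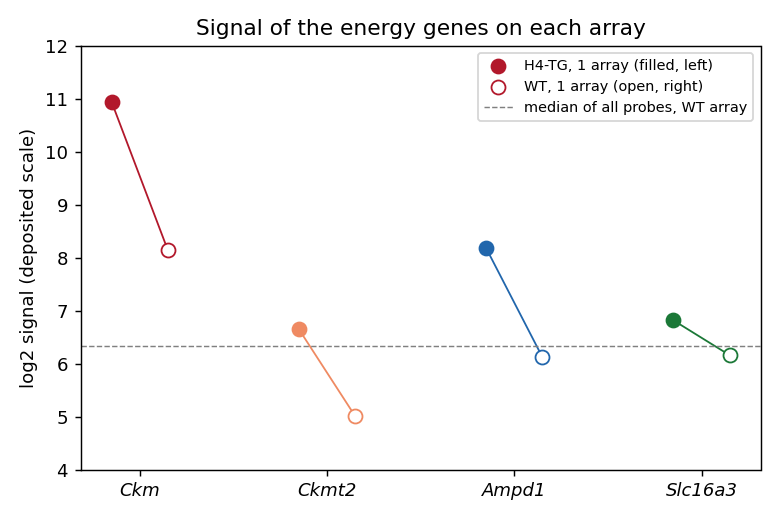
Log2 signal of each gene on the H4-TG array (filled point, left) and on the WT array (open point, right), 1 array each; the dashed line is the median of all WT probes, 6.34. The line joining the points is steepest for Ckm (10.95 and 8.15) and flattest for Slc16a3 (6.82 and 6.16); no error bars exist because there are no replicates.

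**Figure D2:**
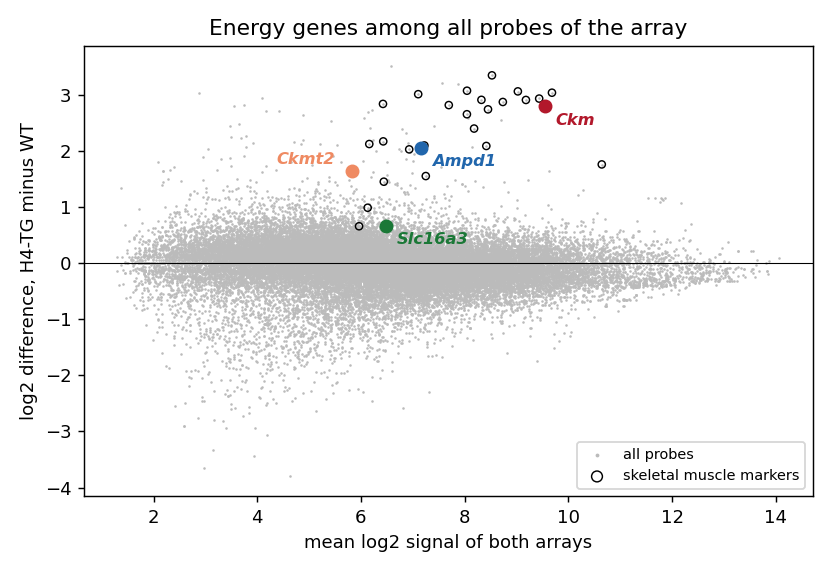
Log2 difference of H4-TG minus WT (vertical axis) against the mean log2 signal of both arrays (horizontal axis) for all 35556 probes (grey), with 24 skeletal muscle markers (open circles) and the 4 energy genes (coloured). Ckm, Ampd1 and Ckmt2 stand above most grey points at 2.80, 2.06 and 1.64, and Slc16a3 lies among the upper grey points at 0.66.

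The rest of the pathway was read from 5 gene lists with 76 distinct genes. A gene had a value only where the authors' deposited table names it, and it lists higher probes alone. Of the 1518 probes at least 1.5-fold higher, 849 were in it. Of the 76 genes, 15 had a value and 61 had none, and a gene without a value may have been higher, lower or little different. Apart from the 4 genes above, 11 list genes had a value, with differences from 0.63 to 2.55 and a median of 1.37, and 8 of the 11 were at least 2-fold higher. The median over all 800 named genes was 0.71, and 120 of them were at least 2-fold higher. All of these genes have a value because they were listed as higher, so their direction is fixed by the table.

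On the phosphagen and creatine list, Ckm and Ckmt2 were the 2 of 8 genes with a value. The brain-type kinase Ckb, the ubiquitous mitochondrial kinase Ckmt1, the creatine synthesis enzymes Gatm and Gamt, the creatine transporter Slc6a8 and the phosphatase Alpl, which has been linked to creatine cycling in mouse fat, have no value here. The list therefore shows Ckm and Ckmt2 alone. What happened to creatine synthesis, uptake and the other kinases was not measured by named probes.

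On the purine nucleotide and adenylate list, 4 of 22 genes had a value, and 3 of them were at least 2-fold higher. Ampd1 was joined by Adss1, the muscle form of adenylosuccinate synthetase, which acts on the product of AMP deaminase in the same cycle. Adss1, named Adssl1 in the table, had a log2 signal of 7.74 in H4-TG and 6.92 in WT, or 1.77-fold. The cytosolic adenylate kinase Ak1, which makes the AMP that Ampd1 uses, had 8.56 in H4-TG and 7.08 in WT, or 2.78-fold. The mitochondrial adenylate kinase Ak4 had 6.28 in H4-TG and 5.21 in WT, or 2.10-fold. Adsl, which completes the cycle, and the other AMP deaminases Ampd2 and Ampd3 have no value here.

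On the lactate list, Slc16a3 and Hcar1 were the 2 of 12 genes with a value, and neither reached 2-fold. Hcar1, the lactate receptor of adipocytes, had a log2 signal of 9.39 in H4-TG and 8.72 in WT. Its difference of 0.67 was nearly that of Slc16a3. The transporters Slc16a1 and Slc16a7, the chaperone Bsg that brings MCT4 to the cell surface, and the lactate dehydrogenases Ldha and Ldhb have no value here.

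The glycogen and glycolysis list had 7 of 28 genes with a value, and 6 of these were at least 2-fold higher. Muscle glycogen phosphorylase (Pygm) was 5.86-fold higher, with 9.98 in H4-TG and 7.43 in WT. The muscle glycogen-targeting subunit of protein phosphatase 1 (Ppp1r3a) was 4.35-fold, muscle phosphoglycerate mutase (Pgam2) 3.51-fold, beta-enolase (Eno3) 3.12-fold, muscle phosphofructokinase (Pfkm) 2.59-fold and the more widely expressed targeting subunit Ppp1r3c 2.25-fold higher. The catalytic subunit of muscle phosphorylase kinase, Phkg1, was 1.55-fold higher. Most of these are the muscle forms of enzymes that have other forms elsewhere, and the other forms on the list, such as Pfkl, Pfkp, Pgam1 and Eno1, have no value here. None of the 6 genes of mitochondrial ATP and ADP exchange, the carriers Slc25a4 and Slc25a5 among them, had a value.

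Markers of skeletal muscle were listed as higher too, and the lower limit of 1.5-fold in the authors' table fixes that direction. Of 25 muscle markers, which leave out the 4 energy genes, 24 had a value and 22 reached 2-fold. Sarcolipin (Sln) had no value. Of all 800 named genes, 120 reached 2-fold. The differences of the 24 markers, by the brightest probe, ran from 0.66 for Tcap to 3.35 for Pvalb. Their median was 2.70 and their quartiles were 2.08 and 2.92. Other listed probes of a marker could differ less: the 7 listed for Trdn ran from 1.01 to 3.08 and the 3 for Ttn from 0.76 to 3.20. Probes under the limit of the authors' table have no name here, so these ranges may be cut at their low end. The summed linear signal of the 24 markers was 19881 on the H4-TG array and 3416 on the WT array, a ratio of 5.82. Their median log2 signal was 9.38 on the H4-TG array and 6.61 on the WT array. The WT value is above the median of 6.34 over all WT probes, and the brightest marker, Myl1, had 11.53 in H4-TG and 9.76 in WT.

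Set against the 24 muscle markers, the 4 energy genes took different places. Ckm was 0.10 above the marker median, with 11 markers above it and 13 below. Ampd1 was 0.64 below that median, with 18 markers above it, and Ckmt2 1.06 below it, with 20 above. Slc16a3 was 2.04 below the median and every one of the 24 markers was above it. The lowest marker, Tcap, was above it by a very small margin, at 0.660 against 0.658 for Slc16a3. In pooled tissue RNA, more cells of a type and more RNA per cell cannot be told apart. The part of muscle RNA in the differences of the 4 energy genes was not tested, and with 1 pool per genotype the genotype and the tissue taken with the fat cannot be told apart. Heart markers (0 of 6) and smooth muscle markers (0 of 5) had no value in the table.

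Of 20 markers of brown and beige adipocytes, 4 had a value. Ucp1, the uncoupling protein, had a log2 signal of 8.35 in H4-TG and 6.97 in WT, or 2.60-fold. Fabp3 was 1.87-fold higher by the brighter of its 2 listed probes, which had log2 differences of 0.90 and 1.25. Cox8b was 1.73-fold and Cox7a1 1.72-fold higher. Muscle expresses Fabp3, Cox8b and Cox7a1 as well. The summed linear signal of the 4 was 3206 in H4-TG and 1788 in WT. The table's lower limit of 1.5-fold fixes this direction, and it says nothing of the unlisted markers. Cidea, Prdm16, Ppargc1a and Dio2 have no value here. Of 10 white adipocyte markers, only angiotensinogen (Agt) had a value, 7.67 in H4-TG and 6.95 in WT. The fat identity of the samples could therefore not be checked from its defining genes Adipoq, Fabp4 and Pparg.

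**Figure D3:**
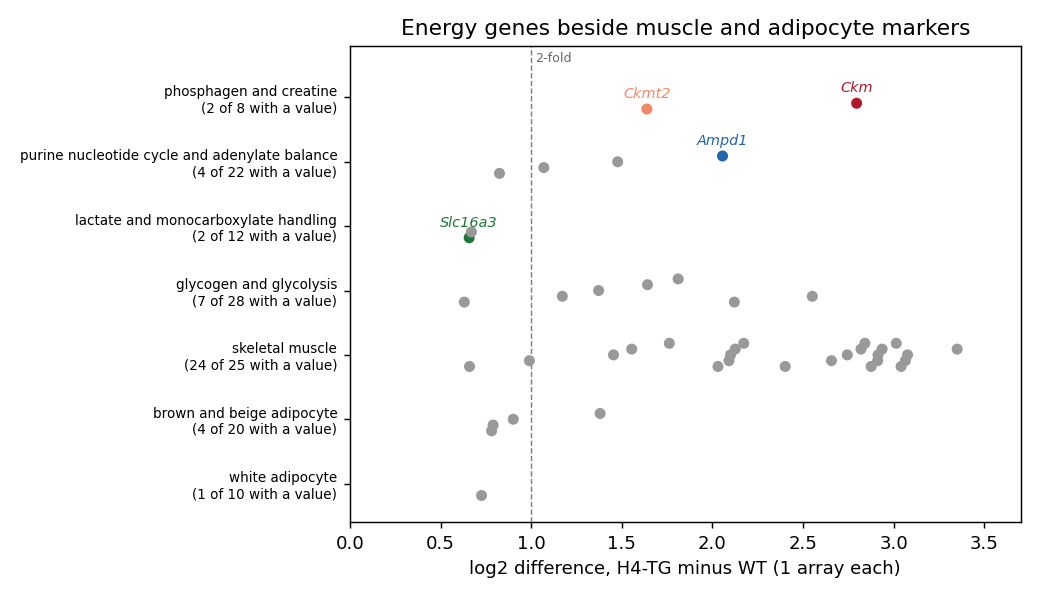
Log2 difference of H4-TG minus WT (horizontal axis, 1 array each) for each gene with a value on the 4 energy lists that had any and on the muscle, brown and beige, and white adipocyte marker lists; each point is a gene, the 4 energy genes are coloured and named, and the dashed line is 2-fold. The 4 energy genes are drawn on the rows of their own lists. By horizontal position, Ckm matches the densest part of the skeletal muscle markers, and Ampd1 and Ckmt2 match their lower part. Slc16a3 (0.66) lies beside Hcar1 (0.67). The vertical position within a list only separates points.

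The genes with the most similar pair of signals were found by the distance between the log2 signals over the 2 arrays, among 729 named genes without predicted or clone names. Nearest to Ckm were the skeletal actin Acta1 (distance 0.19; 10.90 in H4-TG and 7.97 in WT), the calcium pump Atp2a1 (0.26) and the fast myosin heavy chain Myh4 (0.53). Nearest to Ampd1 were the calcium release channel Ryr1 (0.10; 8.27 in H4-TG and 6.17 in WT), the tropomodulin Tmod4 (0.21) and Klhl41 (0.29), which is found in sarcomeres. Nearest to Ckmt2 were the fat storage-inducing protein Fitm1 (0.15; 6.50 in H4-TG and 5.02 in WT), the kinase Alpk3 (0.19) and alpha-sarcoglycan, Sgca (0.34). Nearest to Slc16a3 were the growth factor neurturin, Nrtn (0.02; 6.83 in H4-TG and 6.14 in WT), the retinaldehyde dehydrogenase Aldh1a3 (0.02) and Phkg1 (0.03). Of these 12 genes, all 3 nearest to Ckm and 1 of those nearest to Ampd1 (Ryr1) are on the muscle marker list. The genes nearest to Ckmt2 and Slc16a3 are not on it. That list holds 25 genes, so a gene that is not on it, such as Fitm1, Alpk3, Sgca or Phkg1, can still be a muscle gene. With 2 arrays this likeness is a match of signal and difference only.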

How the data were processed

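Total RNA was extracted with Trizol, pooled by genotype and labelled with biotin for a mouse gene array, per the labels' protocols. The deposited value table holds 1 log2 signal per probe (transcript cluster) and array. The submitters' processing notes name MAS5 but give no settings and no scaling between arrays. The authors' deposited table gives rounded log2 bi-weight signals and, for 869 probes, a linear fold of H4TG against CON, per the file headers. Its CON signals lay within 0.005 of the WT array.

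Differences are H4-TG minus WT on the deposited log2 scale. Gene names come from the authors' table: 822 rows carried 1 symbol, of which 746 were matched to RefSeq by accession, 46 by symbol and 10 by synonym, with 20 unmatched. The brightest probe of a gene in that table stood for the gene. A 2-fold threshold was used. The rule for genes named in the text took the 4 genes, list genes with a value (muscle markers are given mostly by range and count) and the 3 genes nearest to each by distance over both signals. The 4 genes and all lists were chosen with earlier results of these data known. The scalings were tested on simulated data, which checks the code and not the values of these arrays. Having 1 array per genotype limits the precision of all values. Python 3.11.15, numpy 2.4.6, pandas 2.3.3, statsmodels 0.14.6 and matplotlib 3.10.9 were used.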

Additional observations from a re-analysis of the deposited data

How the results depend on the processing

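Median centring, quantile normalization and centring along mean signal (lowess, span 0.3) left each difference with its direction and on its side of 2-fold: Ckm between 2.80 and 2.90, Ampd1 between 2.06 and 2.13, Ckmt2 between 1.58 and 1.67 and Slc16a3 between 0.66 and 0.70. Only Ckm, at 2.90 after quantile normalization, moved by over 0.1. The ratios of the authors' deposited table gave the same differences to within rounding. Each gene has 1 probe in that table, so the mean over its probes is the same value by construction. The muscle marker median lay between 2.70 and 2.80. The 317 probes at least 2-fold higher became 1518 at 1.5-fold, 112 among probes with a mean signal at or above the median, and 174 without the lowest identifiers of the array, which carry no gene name. These counts follow from the thresholds, and all 4 genes come from a table of higher probes, so that no direction turned is no sign of stability. No paired analysis was possible because there is a single array of each genotype, and none could be left out.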
